A study of Homo sapiens with 9 samples.

Results

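BCR, ABL1, NUP214, EXOSC2 and XKR3 are the 5 genes that take part in, or lie beside, the fusion genes of K562 cells, a human myelogenous leukaemia line. They were followed here by γH2AX, the form of histone H2AX phosphorylated around damaged DNA, in cells that lack FANCL, a ubiquitin ligase that acts in DNA crosslink repair through the Fanconi anaemia pathway, and in wild-type (WT) cells. γH2AX was mapped by chromatin immunoprecipitation and sequencing in 8 libraries, 2 per group. The groups were FANCL knockout (KO) cells given PMA, a phorbol ester and differentiation agent, at 5 nM for 72 h (KO PMA), KO cells given a mock treatment for 72 h (KO mock), WT cells given PMA at the same dose and time (WT PMA), and mock-treated WT cells (WT mock). A ninth library was the input of WT mock cells, and all 8 region lists had been called against it. All groups share the K562 background and its rearrangements. The labels do not say how many KO clones were used, or whether replicates were grown apart. The p-values therefore reflect the scatter of these libraries alone, which may be technical.

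The members were found by position on hg19. A region counted when it overlapped a gene or the 20 kb on either side of it, and 579 of the 234983 regions in the 8 lists did. BCR (chr22:23522552-23660224) held 159 regions, ABL1 (chr9:133589268-133763062) 189, NUP214 (chr9:134000981-134110057) 206, EXOSC2 (chr9:133569108-133580248) 4 and XKR3 (chr22:17264306-17302584) 24. The windows of ABL1 and EXOSC2 overlap and share 3 regions. Depth ran from 15.6 to 27.2 M (mega) tags per library and the lists held from 11959 to 42896 regions, the fewest in both WT mock libraries.

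BCR encodes a protein that regulates small GTPases, and ABL1 a non-receptor tyrosine kinase. The translocation between chromosomes 9 and 22 that defines chronic myelogenous leukaemia joins the 5′ part of BCR to the 3′ part of ABL1 and so makes a kinase that is always active, and K562 cells carry this fusion in extra copies. NUP214 is a nucleoporin on the cytoplasmic face of the nuclear pore, and K562 cells join its 5′ part to XKR3, a gene of the XK-related family of membrane proteins. EXOSC2 encodes a cap subunit of the RNA exosome and is the neighbour of ABL1 on its 5′ side, outside the fusion.

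The input level had a clean step at BCR and at ABL1, and none at NUP214 and XKR3. EXOSC2, with 4 regions, was not searched for a step. On the fused, 5′ side of BCR, called regions held 60.2 input tags per kb, which was 9.88 times the median of all regions of the 8 lists (6.09 tags per kb). On the 3′ side the only 2 regions, both from KO mock replicate 1, held 4.0 input tags per kb. The drop lay between 2 regions at chr22:23631009-23641614, a gap of 10.6 kb inside the gene.

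At ABL1 the order was mirrored. The 3′ side, which enters the fusion, held 41.8 input tags per kb, and the 5′ side, with EXOSC2, held 6.09. The 5′ value rests on 3 regions from 2 libraries and 10 input tags. These 3 regions also lie in the EXOSC2 window, so the low values of both are not separate. The gap without regions at that step ran over 30.6 kb, chr9:133576587-133607192, and takes in the end of EXOSC2 and the start of ABL1.

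At NUP214 the input was raised on both sides, at 47.0 tags per kb on the fused, 5′ side and 31.8 on the 3′ side. The largest input step in the window, 1.52-fold, lay at chr9:134072670-134074544 and took in the published junction, which was used to divide the gene. That position was recalled from the literature and not checked against a source, and all values by side at NUP214 rest on it. The raised input went on past the gene and ended at chr9:134154866-134160358, where it was 29.97 tags per kb before and 5.21 after.

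EXOSC2 and XKR3 go against the label of amplified genes. Their regions held 6.54 and 11.2 input tags per kb, or 1.07 and 1.84 times the median of all regions, and XKR3 showed no clean step at its published junction. The raised input at BCR, ABL1 and NUP214 is what K562 DNA is known for. Since only WT mock cells had an input, copy number in the KO and PMA cells was not measured. More copies of a stretch and more γH2AX per copy cannot be told apart in them.

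**Figure D1:**
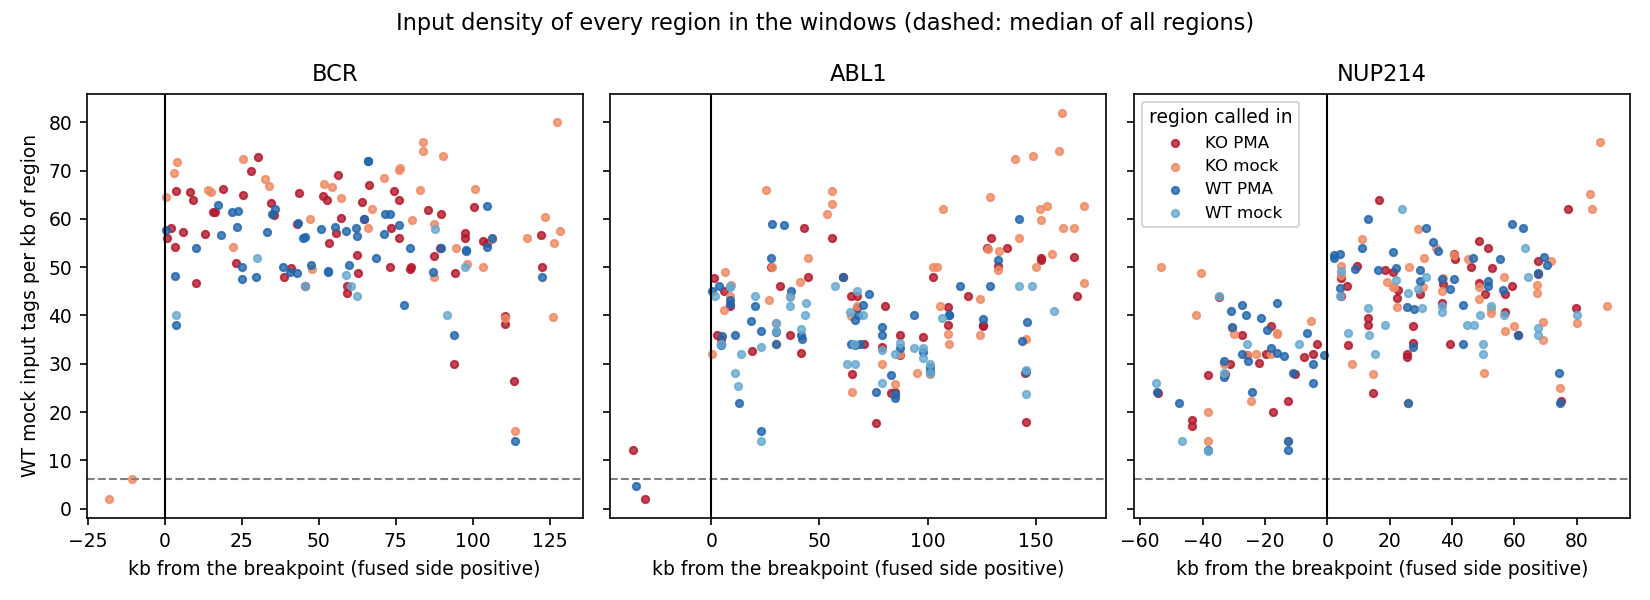
Input tags per kb (vertical axis) of every γH2AX region in the windows of BCR, ABL1 and NUP214 by its distance in kb from the breakpoint, with the fused side positive. Colours give the group whose list held the region and the dashed line is the median of all regions, 6.09 tags per kb. At BCR and ABL1 the few regions on the other side lie near that line, while at NUP214 both sides lie above it.

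The raised input set how regions could be called there. A window of 500 bp had to hold 12 to 16 tags, depending on the library, and at least 2-fold over input. At the median input the tag threshold stood 3.59 to 4.69 times above the tags that the input level alone would give. On the fused side of BCR that input level alone gives 25.3 to 44.0 tags in a window, more than the threshold, so the 2-fold rule decided there. Regions sat just above it. The authors' fold over input had a median of 2.12 on the fused side of BCR, 2.21 on that of ABL1 and 2.18 on that of NUP214, against 4.41 over all regions. On the fused side of BCR 95.5% of regions were under 2.5-fold, against 1.85% of all regions, and none of the regions on the 3 fused sides reached 4-fold. Covered length, the base pairs inside called regions, therefore counts how much of a fused side passed 2-fold over the WT mock input.

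Within libraries, more of the fused side than of the other side of each breakpoint was covered, and at NUP214 cover went on past the junction. At BCR, 24.9% of the fused side and 0.254% of the other side was covered on average over the 8 libraries. At ABL1 it was 9.53% of the fused side and 0.541% of the other side, and at NUP214 21.1% of the fused side and 10.8% of the other side. The fused side was covered more in 8 of 8 libraries at each of the 3 genes (exact permutation test that swaps the sides within libraries, two-sided p = 0.00781 for each gene, the smallest that 256 swaps can give). At BCR and ABL1 the border was the edge of the outermost called region of high input, drawn from these same lists. The gaps without regions, 10.6 and 30.6 kb, therefore fell to the other side in every library. The p-values of these 2 genes thus give no separate support for the difference. At NUP214 the 8 lists share 1 input and the K562 rearrangements, so they are not independent draws of a difference between sides. The part of the input level in these differences was not tested.

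The fused part of BCR had hardly any γH2AX cover in WT mock cells and a wide cover in all other groups. Of its 128 kb, 44.9 and 44.7 kb were covered in KO PMA cells, 53.3 and 51.7 kb in KO mock cells, 23.3 and 33.3 kb in WT PMA cells, and 1.5 and 3.29 kb in WT mock cells. The 4 groups did not overlap, as in 7.66% of the 9552 bins of 100 kb. Normalised tags in these regions, per 10 M tags of the library, summed to 3048 and 2985 in KO PMA, 3938 and 3876 in KO mock, 1447 and 2189 in WT PMA, and 74.3 and 180.4 in WT mock. Per kb of called region there were 66.8 to 67.8 tags in KO PMA, 73.5 to 74.9 in KO mock, 62.2 to 65.8 in WT PMA, and 49.5 to 54.9 in WT mock. Since a region had to pass 2-fold over the same input to be listed, tags per kb of called region do not measure the level outside these regions.

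In limma, fitted over 9564 bins and windows on log2(covered bp + 1000), the fused part of BCR was higher in KO mock than in WT mock cells by 4.03 (SE 0.31, adjusted p = 0.00121). It was higher in WT PMA than in WT mock cells by 3.14 (SE 0.31, adjusted p = 0.00269). KO PMA and WT PMA cells differed by 0.67 (SE 0.31), which did not pass (adjusted p = 0.153). KO PMA and KO mock cells differed by -0.22 (SE 0.31, adjusted p = 0.702). The response to PMA itself differed between genotypes, with an interaction of -3.36 (SE 0.44, adjusted p = 0.00890). Over all 8 libraries KO exceeded WT within treatment by 2.35 (exact permutation p = 0.0556, the smallest that 36 labellings allow).

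The cover of BCR was densest beside the breakpoint in KO cells. In the 20 kb next to it, 16.2 and 10.6 kb were covered in KO PMA cells, 18.9 and 18.7 kb in KO mock cells, 1.4 and 5.95 kb in WT PMA cells, and 0 and 0.5 kb in WT mock cells. The 2 widest regions on any member lay on this part of BCR, 15.6 kb in KO mock replicate 1 (chr22:23608419-23624046) and 14.2 kb in KO mock replicate 2 (chr22:23609981-23624197). They overlap each other and ended 6.96 and 6.81 kb short of the border. Their folds over input were 2.09 and 2.18. WT PMA cells had their densest BCR cover farther away, with 8.93 ± 3.65 kb (SD, n = 2) at 40 to 60 kb from the border and 3.68 ± 3.22 kb in the nearest 20 kb. KO cells were also widely covered at 40 to 60 kb, over 11.5 ± 1.83 kb in KO PMA and 11.5 ± 0.77 kb in KO mock cells. KO PMA replicate 2 was close to even over the nearest 60 kb, with 10.6, 9.90 and 10.2 kb per 20 kb. No base of the fused part was covered in all 8 libraries. The stretches shared by the most libraries, 7, were chr22:23627281-23627765 and chr22:23571665-23572237, which WT mock replicate 1 lacked.

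**Figure D2:**
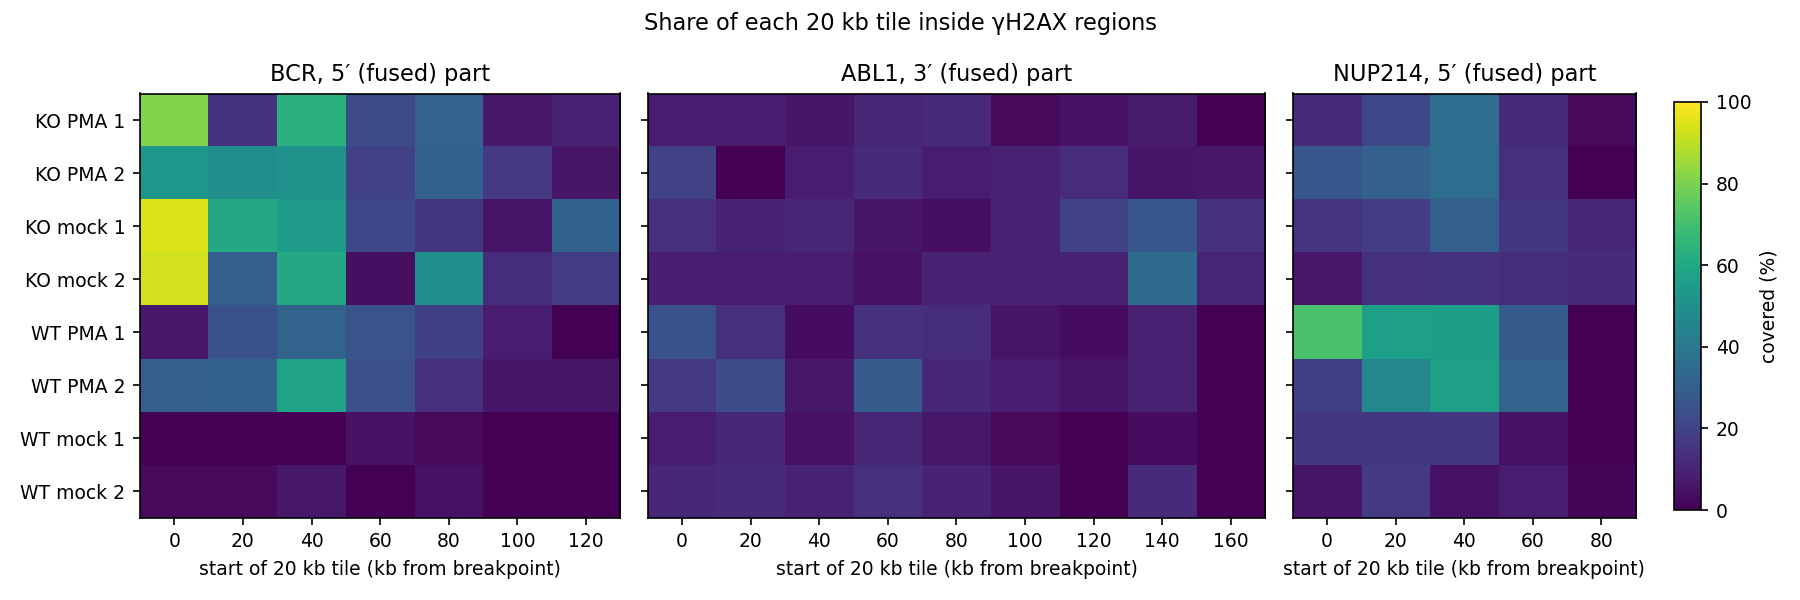
Share of each 20 kb tile inside γH2AX regions (colour, in %) by library (rows) and distance of the tile's near edge from the breakpoint in kb (columns), for the fused parts of BCR, ABL1 and NUP214. The tile nearest the BCR breakpoint was covered over 18.9 and 18.7 kb in the KO mock libraries and 0 and 0.5 kb in the WT mock libraries.

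The promoter of BCR drives the fusion gene, and that of NUP214 the other one, so both are shown as the places a region could have marked. The 300 bases run from 250 before the start to 50 after it, on the forward strand of GRCh38.p14 from RefSeq, with each CG in capitals. They lie at chr22:23180259-23180558 and chr9:131125336-131125635 of that build.
BCR: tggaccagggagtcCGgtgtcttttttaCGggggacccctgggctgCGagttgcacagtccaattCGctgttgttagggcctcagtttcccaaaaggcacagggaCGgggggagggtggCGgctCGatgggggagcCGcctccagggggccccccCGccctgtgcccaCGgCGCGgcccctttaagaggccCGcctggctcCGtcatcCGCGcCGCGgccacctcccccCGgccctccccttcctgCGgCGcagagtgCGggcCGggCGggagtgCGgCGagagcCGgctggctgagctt
NUP214: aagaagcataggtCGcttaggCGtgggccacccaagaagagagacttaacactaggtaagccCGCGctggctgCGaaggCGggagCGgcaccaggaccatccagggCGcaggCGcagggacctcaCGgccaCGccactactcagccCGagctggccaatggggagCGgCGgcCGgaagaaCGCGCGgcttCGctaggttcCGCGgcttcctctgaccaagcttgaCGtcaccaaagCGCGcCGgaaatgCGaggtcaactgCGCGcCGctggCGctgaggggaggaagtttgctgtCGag

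The BCR promoter holds 27 CG and the NUP214 promoter 31, and 71.8% and 79.3% of the 35116 human promoters in the table hold fewer. No library called a region over either start. The nearest region lay 1.78 kb or more from the start of BCR and 0.754 kb or more from that of NUP214, measured on hg19. In WT mock cells the distances were 16.7 and 10.6 kb at BCR, and 5.53 and 5.56 kb at NUP214.

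ABL1 was covered in all 8 libraries, and none of its differences between groups passed the test. Of the 176 kb of its fused part, 11.7 and 15.9 kb were covered in KO PMA cells, 22.3 and 20.4 kb in KO mock cells, 17.5 and 21.97 kb in WT PMA cells, and 9.41 and 14.9 kb in WT mock cells. The KO mock libraries lay above both WT mock libraries, while the KO PMA libraries lay below both WT PMA libraries. Each separates 2 libraries from 2, with an exact permutation p of 0.333, the smallest possible. How many bins separate in this way was not counted. Normalised tags summed to 544.5 and 792.5 in KO PMA, 1322 and 1179 in KO mock, 791 and 1005 in WT PMA, and 419.4 and 659.5 in WT mock.

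In limma, KO mock minus WT mock was 0.80 (SE 0.28, adjusted p = 0.110), KO PMA minus WT PMA -0.49 (adjusted p = 0.237) and WT PMA minus WT mock 0.68 (adjusted p = 0.117). KO PMA minus KO mock was -0.61 (adjusted p = 0.213), and the interaction was -1.29 (SE 0.39, adjusted p = 0.0817). Scaled to 1 total covered length, KO mock minus WT mock was -0.11 and WT PMA minus WT mock -0.88. With regions of at least 1000 bp alone, WT PMA exceeded WT mock by 2.51 (adjusted p = 0.0315) and the interaction was -3.95 (adjusted p = 0.0192).

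The 3′ end of ABL1 stood out within the gene in KO mock cells. At 140 to 160 kb from the border they had 6.19 ± 1.11 kb covered, against 1.52 ± 1.26 kb in WT mock cells (SD, n = 2 each). The 100 kb bin with this end, chr9:133700001-133800000, was higher in KO mock than in WT mock cells by 1.78 (SE 0.41, limma adjusted p = 0.0368), while the bin before it differed by -0.09 (adjusted p = 0.913). A stretch of 437 bp near the 3′ end, chr9:133752355-133752791, was inside a region in all 8 libraries, at 2.01 to 3.36 times the input.

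BCR and ABL1 are joined in the fusion, and the ratio of their cover was compared between groups. With 1000 bp added to both covered lengths, as in the fit, the ratio of BCR to ABL1 cover was 3.61 and 2.70 in KO PMA cells, 2.33 and 2.47 in KO mock cells, 1.31 and 1.49 in WT PMA cells, and 0.240 and 0.270 in WT mock cells. It was higher in KO than in WT within treatment by 2.20 on the log2 scale (exact permutation p = 0.0556, the smallest possible). It was also higher with PMA than without within genotype, by 1.42 (exact permutation p = 0.0556). This pooled value was 2.46 in WT cells and 0.38 in KO cells. The ratio of BCR to NUP214 cover, on their fused sides, was higher in KO than in WT by 2.49 (exact permutation p = 0.0556). With PMA against mock it differed by 0.30 (exact permutation p = 0.667).

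NUP214 was covered most in WT PMA cells. In its whole window of 149 kb, 24.6 and 24.9 kb were covered in KO PMA cells, 22.3 and 17.6 kb in KO mock cells, 54.4 and 40.9 kb in WT PMA cells, and 11.03 and 10.5 kb in WT mock cells. Both WT PMA libraries lay above all others and both WT mock libraries below all others. How many of the 9552 bins show the same order was not counted. WT PMA was called higher than WT mock in 32.1% of them. Normalised tags summed to 1156 and 1271 in KO PMA, 1148 and 871.9 in KO mock, 2899 and 2192 in WT PMA, and 530.9 and 479.5 in WT mock.

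In limma NUP214 was higher in WT PMA than in WT mock cells by 2.04 (SE 0.20, adjusted p = 0.00270), and by 0.47 (adjusted p = 0.198) with libraries scaled to 1 total covered length. It was higher in KO mock than in WT mock cells by 0.83 (SE 0.20, adjusted p = 0.0416) and lower in KO PMA than in WT PMA cells, with a difference of -0.90 (adjusted p = 0.0205). KO PMA minus KO mock was 0.30 (adjusted p = 0.403), and the interaction was -1.73 (SE 0.28, adjusted p = 0.0187). The KO mock call was lost without any 1 of the 4 mock or 2 KO PMA libraries (adjusted p of 0.0710 to 0.168) and its value became -0.069 with libraries scaled to 1 total covered length. The KO PMA call was lost without WT PMA replicate 1, KO PMA replicate 1 or KO PMA replicate 2 (adjusted p of 0.0696 to 0.0794). The interaction was lost without either WT mock replicate, KO mock replicate 1 or either KO PMA replicate (adjusted p of 0.0501 to 0.0628) and when scaled (-1.26, adjusted p = 0.0506).

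Both sides of the NUP214 junction were higher in WT PMA than in WT mock cells. The fused, 5′ side had 42.6 and 30.7 kb covered in WT PMA cells and 10.5 and 7.31 kb in WT mock cells, a difference of 1.93 (SE 0.31, limma adjusted p = 0.00968). The 3′ side had 11.8 and 10.2 kb in WT PMA cells and 0.5 and 3.14 kb in WT mock cells, a difference of 2.26 (SE 0.57, limma adjusted p = 0.0320). The fused-side call was lost without WT PMA replicate 1 (1.70, adjusted p = 0.0535), and both were lost when scaled to total covered length (0.38 and 1.12). The 3′ side call was also lost without WT mock replicate 1 (1.53), either WT PMA replicate (2.16 and 2.36) or either KO mock replicate, at adjusted p of 0.0568 to 0.133. Other calls of the NUP214 window passed on neither side alone in limma. KO mock minus WT mock was 0.63 on the fused side and 1.39 on the 3′ side (adjusted p of 0.254 and 0.164). KO PMA minus WT PMA was -0.90 and -0.91 (adjusted p of 0.0731 and 0.282). The interaction was -1.53 and -2.30 (adjusted p of 0.0741 and 0.111). Shared stretches at NUP214 included chr9:134006765-134007015 and chr9:134037156-134037707, both on the fused side and in all 8 libraries.

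**Figure D3:**
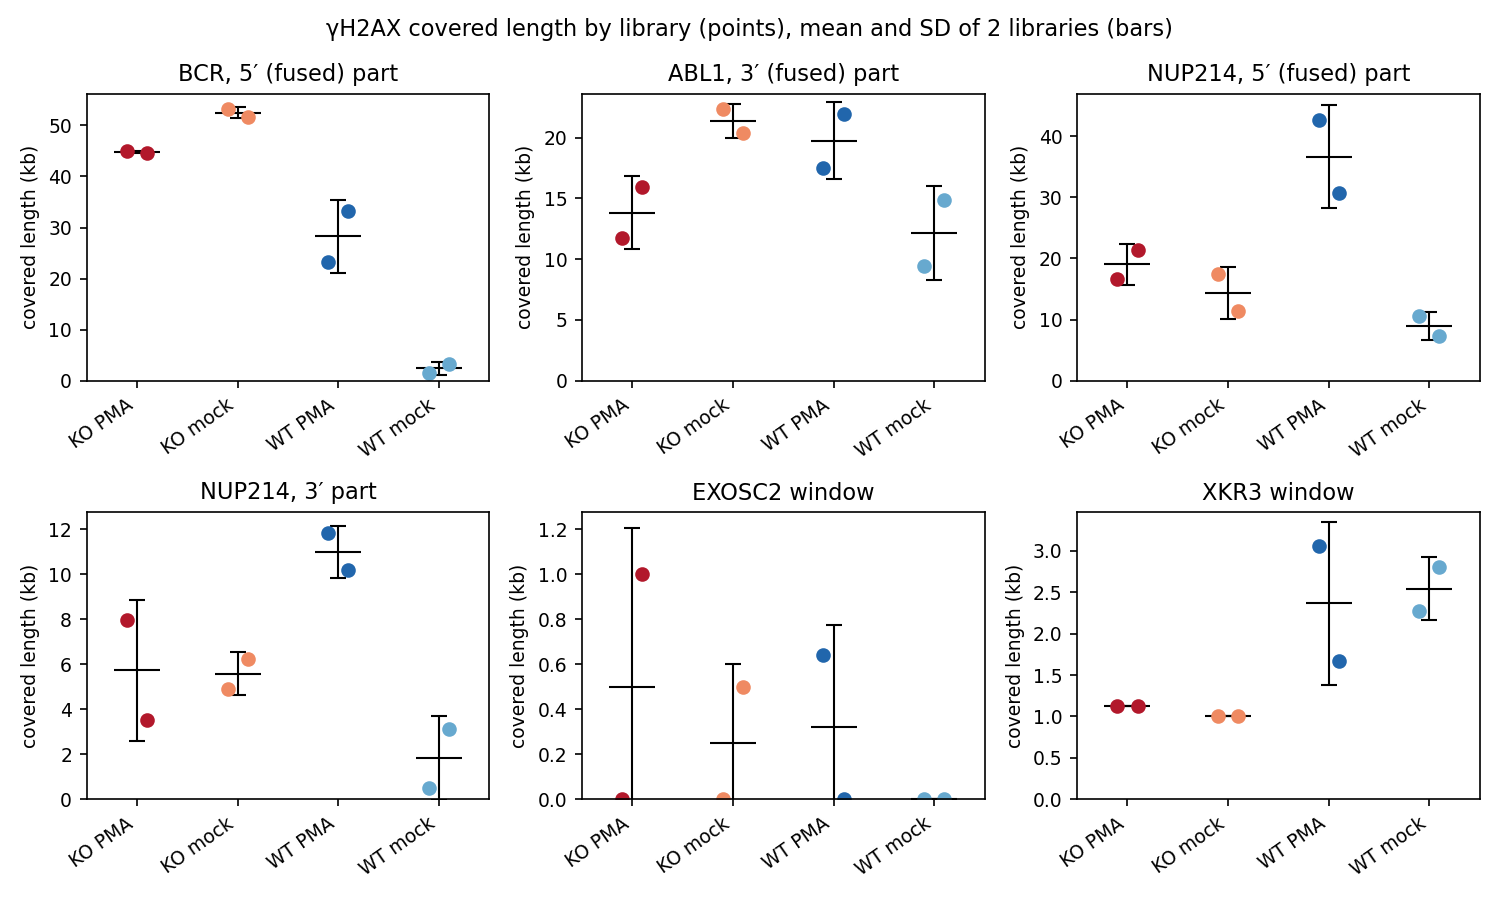
Covered length in kb (vertical axis, each panel with its own scale from 0) in each library (points) by group, with the mean and SD of 2 libraries (bars, ended at 0 where they would pass it). The fused part of BCR runs from 1.5 kb in a WT mock library to 53.3 kb in a KO mock library, while NUP214 peaks in WT PMA cells.

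The stretch between ABL1 and NUP214, 198 kb of raised input, was covered in KO mock cells above all. It had 1.0 and 0 kb in KO PMA cells, 10.2 and 10.8 kb in KO mock cells, 0 kb in both WT PMA libraries, and 0 and 0.637 kb in WT mock cells. The bin at its NUP214 end, chr9:133900001-134000000, was higher in KO mock than in WT mock cells by 2.81 (SE 0.31, limma adjusted p = 0.00369) and lower in KO PMA than in KO mock cells, with a difference of -1.80 (adjusted p = 0.0171).

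EXOSC2 had 4 regions in all, of 500 to 641 bp. KO PMA replicate 2 had 1.0 kb covered, KO mock replicate 2 0.5 kb and WT PMA replicate 1 0.641 kb, and the other 5 libraries, both of WT mock among them, had none. Each base was covered in at most 1 library, so no difference between groups was detectable there.

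XKR3 was covered least in KO cells, at 1.13 kb in both KO PMA libraries and 1.0 kb in both KO mock libraries, against 3.06 and 1.67 kb in WT PMA cells and 2.27 and 2.81 kb in WT mock cells. All 4 KO libraries had 2 regions and the WT libraries 3 to 5. The difference did not pass in limma, at -0.82 for KO mock minus WT mock (SE 0.25, adjusted p = 0.0839) and -0.63 for KO PMA minus WT PMA (SE 0.25, adjusted p = 0.113). The first passed without either WT PMA replicate (adjusted p of 0.0384 and 0.0393), the second without WT PMA replicate 2 (-0.93, adjusted p = 0.0381). Over all 8 libraries it was -0.72 (exact permutation p = 0.0556, the smallest possible). The region in the most libraries, 6, was chr22:17285585-17286022, which both KO mock libraries lacked.

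Set against all bins, the 5 windows gave the following counts in limma. In KO mock against WT mock 2 of 5 windows, BCR and NUP214, were higher, where 17.2% of the 9552 bins were higher and 3.61% lower. In WT PMA against WT mock the same pair was higher, where 32.1% of bins were. In KO PMA against WT PMA NUP214 alone was lower, where 21.9% of bins were lower and 15.9% higher. Of the bins called in that comparison 42.0% were higher, but 64.4% with 1 tag threshold for all libraries, 59.4% with regions of at least 1000 bp and 56.6% without WT PMA replicate 1. In KO PMA against KO mock none of the 5 was called and none had an unadjusted p under 0.05, while 18.4% of bins were called; the exact permutation test, with a smallest p of 0.333, cannot make a call there. In the interaction BCR and NUP214 were lower, where 12.7% of bins were. The comparisons share libraries and are not independent of each other. The median difference of all bins was 0.29 for KO mock against WT mock, -0.21 for KO PMA against WT PMA, 0.66 for WT PMA against WT mock, 0.21 for KO PMA against KO mock and -0.54 for the interaction.

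**Figure D4:**
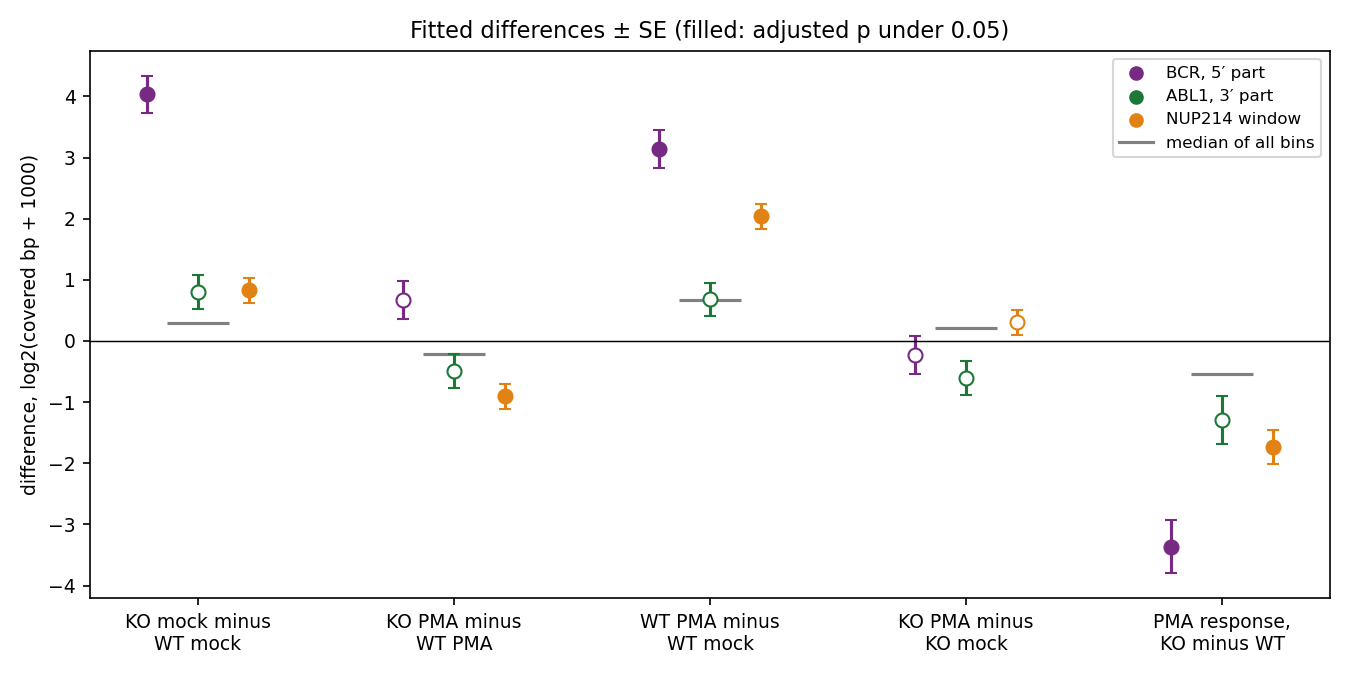
Fitted difference in log2(covered bp + 1000) with its SE (vertical axis) for the fused parts of BCR and ABL1 and the window of NUP214 in the 5 comparisons (horizontal axis). Filled points passed an adjusted p of 0.05 and grey lines are the median of all bins. BCR stands at 4.03 in KO mock minus WT mock and at -0.22 in KO PMA minus KO mock.

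Other bins of raised input on chromosome 22 were also higher in KO cells. Of 66 bins with at least 3 times the median input, 40 lay at chr22:19000001-23700000, and 38 of these were outside the BCR window. KO mock exceeded WT mock in 27 of the 38 (71.1%) and fell below it in none, with a median difference of 2.13. Of all bins 17.2% were higher and 3.61% lower in that comparison. KO PMA exceeded WT PMA in 18 of the 38 (47.4%) and fell below it in 2, where 15.9% of all bins were higher. Of the 17 bins of raised input on chromosomes other than 9 and 22, 4 were higher and 3 lower in KO mock against WT mock.

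The 38 bins held 765 and 711 kb of cover in KO PMA cells, 642 and 683 kb in KO mock cells, 271 and 334 kb in WT PMA cells, and 128 and 130 kb in WT mock cells. Whole libraries held 42.5 and 34.5 Mb in KO PMA, 17.2 and 17.3 Mb in KO mock, 31.3 and 24.8 Mb in WT PMA, and 9.63 and 8.18 Mb in WT mock. The fused part of BCR made up 0.106% and 0.129% of the library's covered length in KO PMA, 0.310% and 0.299% in KO mock, 0.0742% and 0.134% in WT PMA, and 0.0156% and 0.0401% in WT mock. Raised γH2AX at BCR in KO cells and a KO line with more copies of this stretch of chromosome 22 cannot be told apart with an input of WT mock cells alone.

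**Figure D5:**
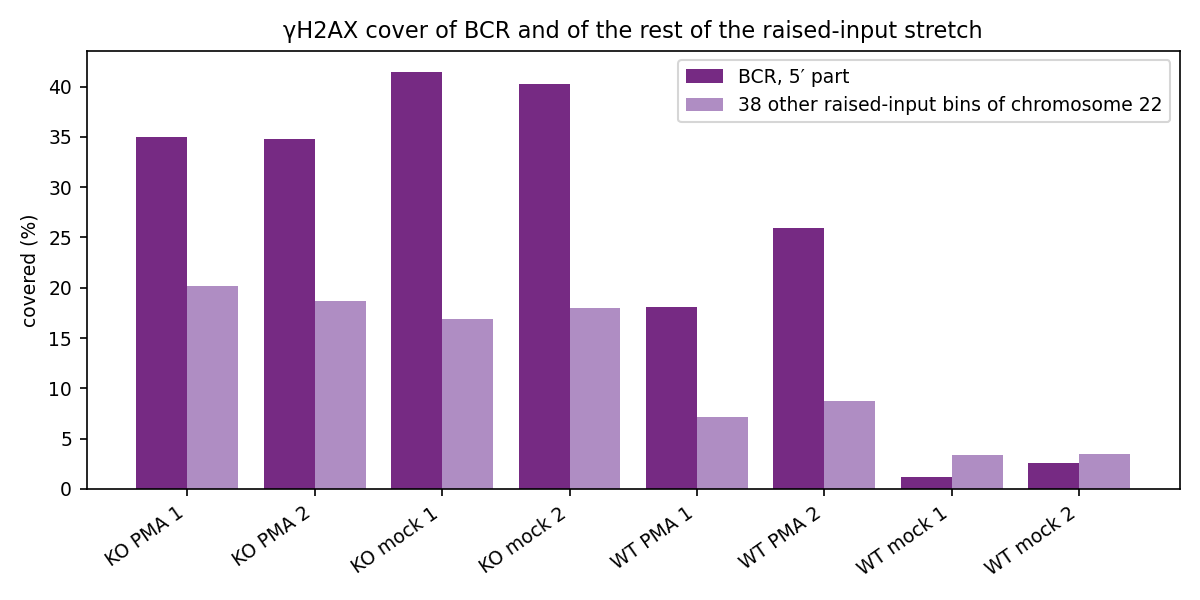
Covered share in % (vertical axis, from 0) of the fused part of BCR (dark bars) and of the 38 other raised-input bins of chromosome 22 (light bars) in each library. Both are higher in all 4 KO libraries than in any WT library, with 16.9% to 20.1% of the 38 bins covered in KO libraries and 3.36% to 8.78% in WT libraries. How many bins elsewhere separate KO from WT libraries in this way was not counted.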

How the data were processed

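The submitters' processing notes name CASAVA 1.4, BWA, HOMER and hg19. Regions were called by the authors library by library with HOMER, per the file headers, with the WT mock input as control: windows of 500 bp at a tag threshold (p of 0.001), at least 2-fold over input (p of 0.0001). The deposited normalised tag signal is per 10 M tags of the library. The deposited input signal is unscaled in 3 lists and scaled by the authors to library depth in 5, which was undone here (input depth 18.6 M tags). Lists of the authors also hold unscaled tag counts, a score, a fold ratio over input and a p-value per region, which are the authors' own; the fold described and filtered regions, and the score ranked them in 1 alternative.

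The 5 genes, the lists and the rules were chosen with earlier results of these data known. Breakpoints were placed at the edge of an input step of at least 2-fold, and for NUP214 and XKR3 at the published junction, recalled from the literature and not checked. A step counted as clean where 90% of regions before it were high, a rule set after the values were seen. Where a region overlaps others from further libraries, its input tags enter each density again. Covered length on chromosomes 1 to 22 and X was tested in 100 kb bins, with the windows and sides as added features, where at least 2 libraries had cover, by limma 3.58.1 in R 4.3.3 (trend, 4 groups in 1 fit, Benjamini-Hochberg, threshold 0.05, two-sided). The script was tested on simulated data. Single values had exact permutation tests, whose smallest p with 2 libraries against 2 is 0.333. Python 3.11.15, numpy 2.4.6, pandas 2.3.3 and scipy 1.17.1 were used. All 5 genes and their bins were named by rule, and single stretches were the 2 of a side called in the most libraries; the 20 kb tiles, wide regions, the stretch between ABL1 and NUP214 and the raised-input bins were added after values were seen. Alternatives changed the pseudocount, filters, region thresholds, scaling, flanks and libraries. An hg19 genome was not used here, so no region is printed as sequence.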

Additional observations from a re-analysis of the deposited data

Results flagged for a closer look

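The response to PMA differed between genotypes at 2 members, by the interaction term of limma. At the fused part of BCR the KO response minus the WT response was -3.36 (SE 0.44, adjusted p = 0.00890): PMA moved KO cells by -0.22 and WT cells by 3.14 on the log2(covered bp + 1000) scale. At NUP214 it was -1.73 (SE 0.28, adjusted p = 0.0187), with 0.30 in KO cells and 2.04 in WT cells. Neither side of the NUP214 junction passed alone, at -1.53 on the fused side (adjusted p = 0.0741) and -2.30 on the 3′ side (adjusted p = 0.111). With 2 libraries per group no library could be tested as standing apart from its group.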

How the results depend on the processing

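The 3 calls at the fused part of BCR (KO mock and WT PMA against WT mock, interaction) passed in all 18 alternatives with values. They were 2.97 to 5.57, 1.81 to 4.20 and -4.61 to -2.37. No bin filter, 1 tag threshold, the replicate block and dropping another group's library moved no difference, so tested little. At 4-fold or 6-fold over input the fused sides held no region, so BCR, ABL1 and NUP214 had no value. The covered share of the fused minus the other side was then -0.254 percentage points at BCR, -0.376 at ABL1 and 0.0 at NUP214; without 1 library each it stayed at 22.4 to 28.0, 8.46 to 9.51 and 8.28 to 11.6. With regions of at least 1000 bp the input ratio of the NUP214 sides was 1.30 in place of 1.47, and KO PMA exceeded WT PMA at BCR by 0.96 (adjusted p = 0.0456). Scaled to total covered length, that BCR difference fell to 0.22 (limma adjusted p = 0.797). The median of all bins moved to 0 in KO mock against WT mock and KO PMA against KO mock (0.29 and 0.21 before). It was 0.28 in WT PMA against WT mock (0.66 before). ABL1 then stood at -0.11 for KO mock and -0.88 for WT PMA, both against WT mock. NUP214 stood at -0.069 for KO mock against WT mock, -0.79 for KO PMA against KO mock, 0.47 for WT PMA against WT mock and -1.26 for the interaction, none of them called, and XKR3 at -1.70 for KO mock against WT mock (adjusted p = 0.0102). The NUP214 call in KO mock against WT mock was also lost with a pseudocount of 5000 bp (0.66), without flanks (0.65) and with regions of at least 1000 bp (1.25), and that of its 3′ side with a pseudocount of 100 bp (2.99), 1 tag threshold or the same number of regions (2.26 in both). The causes were not tested.

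Counts of called bins were 1992, 3612, 3283, 1762 and 1571 for KO mock against WT mock, KO PMA against WT PMA, WT PMA against WT mock, KO PMA against KO mock and the interaction. The first became 967 at 4-fold, 250 at 6-fold, 1288 with the same number of regions per library, 613 with regions of at least 1000 bp and 792 to 1998 without 1 library. The second became 2289 with a pseudocount of 100 bp, 1230 at 6-fold, 1692 with the same number, 1950 with at least 1000 bp and 1832 to 3315 without 1 library. The third became 1138 at 6-fold, 1386 with 1 tag threshold, 899 with the same number, 1033 with at least 1000 bp, 1907 when scaled and 1432 to 2995 without 1 library. The fourth became 879 at 4-fold, 369 at 6-fold, 503 with the same number, 1080 with at least 1000 bp, 711 when scaled and 513 to 1797 without 1 library. The interaction became 856 at 4-fold, 727 at 6-fold, 743 with the same number and 492 to 946 without 1 library. Scaling moved the share of higher among called bins to 62.5% (82.7% before) in the first, 72.8% (93.3%) in the third and 27.4% (71.1%) in the fourth. With the same number of regions per library it was 50.3%, 48.3% (42.0% before), 51.5%, 52.7% and, in the interaction, 53.2% (362 of 1571 bins before). Same-numbered replicates deviated together by r of -0.059 to 0.16. Neither the labels nor the main fit pair them. With the replicate number as a block the counts were 1756, 3423, 3119, 1521 and 1107. Of the member calls only the 3′ side of NUP214 (WT PMA against WT mock, limma adjusted p = 0.0550) was then lost.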
